A study of Drosophila melanogaster with 20 samples.

Results

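WT-24 and WT-6 are separate fly lines that carry the same wild-type human proinsulin transgene at different insertions, and their eye discs were set against each other. The 8 arrays of these lines, chosen by their line label, make up 8 of the 20 arrays in the series. Transcripts were measured with Affymetrix arrays in eye imaginal discs of Drosophila melanogaster, taken from wandering larvae of the third instar kept at 25 °C. WT-24 and WT-6 larvae had the genotype GMR-GAL4/UAS-hINSWT with 1 copy of the transgene, and each line gave 2 male and 2 female arrays, called biological replicates in the labels. Non-transgenic larvae, which per the labels carry GMR-GAL4 too, and the lines Mut-101 and Mut-1 with C96Y mutant proinsulin gave 4 arrays each, split by sex in the same way.

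In the GAL4/UAS system, the yeast activator GAL4 switches on a gene placed behind UAS sites. GMR-GAL4 is active in eye disc cells behind the morphogenetic furrow, the front at which photoreceptor clusters form, so cells ahead of the furrow and other cells in the dissected tissue are not meant to express the transgene. A transgene inserted at random takes its expression level in part from the site where it lands, and each insertion line also has its own genetic background. Each insertion here is represented by a single line, so effects of insertion site, transgene level and background cannot be told apart. The transgene RNA was not analysed here. Numbers in the sample descriptions also overlap little between WT-24 and WT-6, and the labels do not say whether they mark a batch or a sample.

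Eye disc markers were compared between the lines first. All 9 eye disc and photoreceptor markers (ey, so, eya, gl, elav, ato, sens, lz and chp) were tested, and none was called between the lines. The summed intensity of these 9 genes lay between 33111 and 38412 units in WT-24, with a median of 34703, and between 34306 and 35467 in WT-6, with a median of 34781. The ranges overlapped. Within a line and sex, arrays had a correlation of 0.987 to 0.991 over tested probe sets, mean intensity was 1201 to 1225 units on the 8 arrays, and the median residual SD of the fit was 0.102 on the log2 scale. The first principal component of the 8 arrays, with 32.7% of the variance, separated the lines in males but not in females. WT-24 males scored 15.19 and 17.88 there and WT-6 males -3.15 and 5.71. The females overlapped, at -14.1 and -3.25 in WT-24 and -3.67 and -14.62 in WT-6. On the second component, with 19.5%, WT-6 males scored 10.4 and 13.73 and WT-24 males 2.97 and -8.83. WT-6 females scored -3.31 and 2.6 there and WT-24 females -3.32 and -14.23, so WT-6 lay higher within each sex, barely in females.

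Few probe sets passed the threshold between the lines, and most of those differed by little. Of 10262 tested probe sets, 98 (0.955%) passed an adjusted p of 0.05 in limma, 61 (0.594%) higher in WT-24 and 37 (0.361%) lower. A probe set is the group of array probes that reads the transcripts of a gene, and a called probe set or gene is one that passed this threshold. An unadjusted limma p under 0.05 was reached by 907 probe sets (8.84%), so the calls do not count all genes that may differ. The platform annotation pairs 81 of the 98 with a single gene, 50 higher and 31 lower. The median size of the 98 differences was 0.46 on the log2 scale, or 1.38-fold, and 69 were under 1.5-fold. Only 4 rises and 4 falls exceeded 2-fold, and 1 of each came from a probe set with no single gene. Every one of the 98 had the same sign in males and in females. In 95 of them the 4 arrays of WT-24 did not overlap the 4 of WT-6, which held for 4.58% of all tested probe sets. Calls on the mean of the sexes favour both of these traits, so neither is separate support. The median difference over all tested probe sets was 0.0024. The error behind these p-values comes from replicate arrays, not from independent insertion lines. With the number in the sample description as a replicate block, 2 probe sets were called, and none of the 98 was among them. These numbers overlap little between the lines, and their meaning is not given in the labels. The count of 98 fell to 59 without WT-24 female replicate 1, to 61 without WT-6 female replicate 2 and to 65 without WT-24 female replicate 2.

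**Figure D1:**
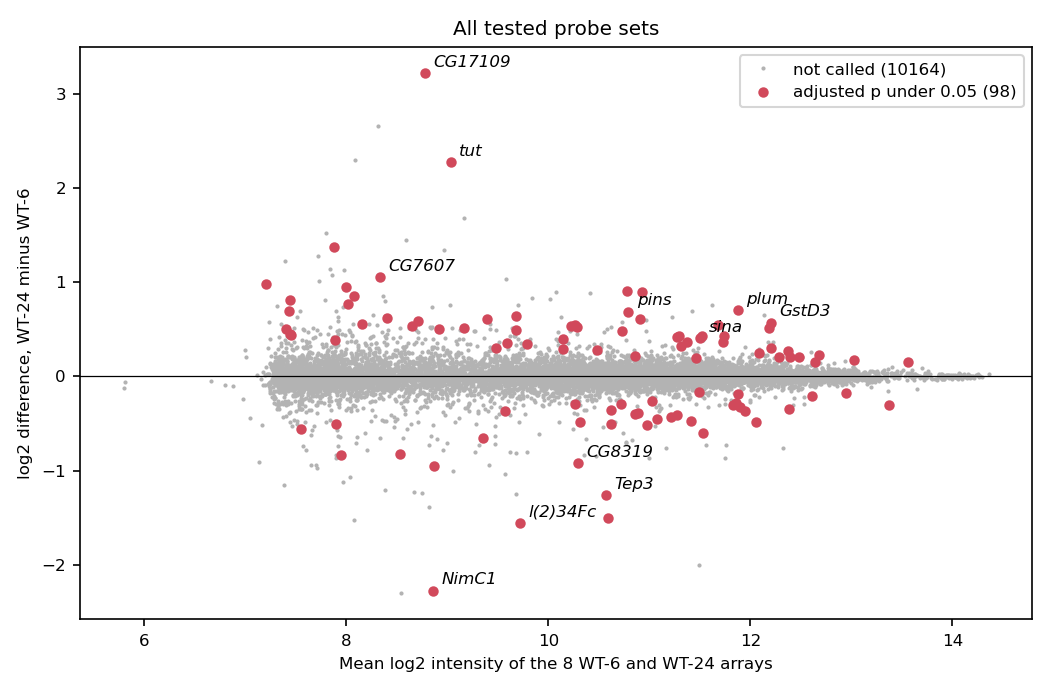
Log2 difference between WT-24 and WT-6 (vertical axis) against the mean log2 intensity of the 8 arrays (horizontal axis) for each tested probe set. The 98 called probe sets, in red, spread over the range of intensity, and CG17109, tut and NimC1 lie farthest from 0 among those with a gene name.

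The largest rises in WT-24 came from CG17109 and tut. CG17109, known here by its identifier only, read 518 and 882 units in WT-24 males and 2485 and 2831 in WT-24 females. In WT-6 it read 221 and 47.8 in males and 260 and 154 in females. All 4 WT-6 arrays lay below all 16 other arrays of the series, and non-transgenic discs read 491 to 2358. The difference was 9.33-fold (log2 3.22 ± 0.491 SE, limma adjusted p = 0.00379), with means of 1679 ± 1150 in WT-24 and 171 ± 92.8 in WT-6 (SD, n = 4 each). The gene tut (tumorous testis) encodes an RNA-binding protein known from the male germ line, where it acts with Bam and Bgcn. It read 799 and 1092 units in WT-24 males, 1231 and 1651 in WT-24 females, 211 and 274 in WT-6 males, and 244 and 228 in WT-6 females. The lines did not overlap, and WT-24 was 4.85-fold higher (log2 2.28 ± 0.260 SE, adjusted p = 0.000617). Mut-101 discs read 956 to 1086 units, close to WT-24, and Mut-1 discs 121 to 270, close to WT-6, while non-transgenic discs spread from 384 to 944.

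CG7607 and Mrp4 were each about 2-fold higher. CG7607, again known by identifier, read 393 and 442 units in WT-24 males and 558 and 484 in females, against 195 and 187 in WT-6 males and 222 and 310 in WT-6 females. Here the WT-24 arrays stood above all 16 others, whose highest value was 319, and the difference was 2.08-fold (log2 1.06 ± 0.114 SE, limma adjusted p = 0.000421). Mrp4, an ABC transporter gene of the multidrug resistance protein family, read 165, 171, 268 and 244 in WT-24 and 93.2, 93.8, 103 and 134 in WT-6, males first. It was 1.98-fold higher in WT-24 (log2 0.99 ± 0.128 SE, adjusted p = 0.00154). WT-6 had the lowest Mrp4 level of the 5 lines, and Mut-1, at 393 to 878, the highest. All WT-6 arrays read below the lowest geometric mean tested (158 units), and the Mut-1 arrays raised the mean that the intensity filter used.

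pins (partner of inscuteable), which orients the mitotic spindle in dividing neuroblasts and sensory organ precursors, had the smallest p among the rises. It read 2275, 2262, 2210 and 2246 units in WT-24 and 1409, 1419, 1438 and 1320 in WT-6. The lines did not overlap, and the WT-6 arrays lay below all 16 others. The means were 2248 ± 28.1 in WT-24, 1396 ± 52.4 in WT-6 and 2249 ± 203 in non-transgenic discs (SD, n = 4 each), a 1.61-fold difference between the transgenic lines (log2 0.69 ± 0.0517 SE, limma adjusted p = 5.18e-05). plum, which encodes an immunoglobulin-superfamily membrane protein needed for axon pruning in the mushroom body, read 4870, 4935, 4941 and 4401 in WT-24 against 2634, 3233, 3074 and 2857 in WT-6. WT-24 was 1.63-fold higher (log2 0.70 ± 0.0694 SE, adjusted p = 0.000220). For plum the non-transgenic mean lay near WT-6, with arrays from 2990 to 3545.

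The other genes among the 12 largest rises were CG33307 (log2 0.95), Cpr92A (0.85), CG9368 (0.82), CG7916 (0.77), alpha-Man-Ic (0.70) and Srr (0.63). Cpr92A encodes a cuticle protein, alpha-Man-Ic a mannosidase of N-glycan trimming, and Srr serine racemase. Their adjusted p-values in limma ran from 0.000617 for CG33307 to 0.0340 for CG7916. CG33307 read 384, 377, 367 and 299 units in WT-24 and 180, 205, 170 and 184 in WT-6, and its WT-6 arrays were again the lowest of the series. These genes were dim, with Srr at 428 ± 102 in WT-24 and 272 ± 16.6 in WT-6 and CG9368 at 233 ± 37.5 and 132 ± 12.1 (SD, n = 4 each). The calls of CG7916 and alpha-Man-Ic ended without any of 6 and 5 of the 8 arrays, respectively.

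The 3 largest falls among called genes were those of NimC1, l(2)34Fc and Tep3. Larval blood cells of the fly, the haemocytes, travel in the body cavity and attach to discs, so a dissected disc can carry them. NimC1 encodes a phagocytosis receptor of plasmatocytes, the main larval haemocyte. It read 154 and 151 units in WT-24 males, 320 and 268 in WT-24 females, 1032 and 748 in WT-6 males and 1276 and 1111 in WT-6 females. The lines did not overlap, with WT-24 at 223 ± 84.4 and WT-6 at 1042 ± 221 (SD, n = 4 each), 4.84-fold lower in WT-24 (log2 -2.28 ± 0.286 SE, limma adjusted p = 0.00131). Both mutant lines were as low as WT-24, from 189 to 238 in Mut-101 and from 200 to 228 in Mut-1. The non-transgenic arrays split, with female replicate 1 at 1050 and the other 3 at 278 to 368.

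Tep3, a gene for a secreted thioester protein of the complement type, read 968, 871, 1093 and 1002 units in WT-24 and 2569, 2313, 2215 and 2334 in WT-6. WT-6 stood above all 16 other arrays, and WT-24 was 2.40-fold lower (log2 -1.26 ± 0.135 SE, limma adjusted p = 0.000421). l(2)34Fc, annotated as a putative defence protein gene, read 430, 435, 497 and 632 in WT-24 and 1304, 1106, 1927 and 1588 in WT-6. Its fall of 2.94-fold (log2 -1.56 ± 0.223 SE, adjusted p = 0.00301) separated the lines without overlap, and non-transgenic arrays spread from 673 to 1529, into the range of WT-6 and down toward that of WT-24.

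The rest of the haemocyte list did not move with NimC1 past the threshold. All 13 haemocyte markers were tested, NimC1 fell, and the other 12 were not called, with log2 differences from -0.36 for Hml to 0.07 for crq. The list's median was -0.176, against 0.0024 over all tested probe sets. atilla, a marker of another haemocyte type, was not on the list and was called lower in WT-24 (-0.49, limma adjusted p = 0.0157). It read 1003 to 1172 units in WT-24 and 1355 to 1577 in WT-6, and was picked after its values were seen. Hml (hemolectin), a marker used for plasmatocytes, read 632 and 1011 units in WT-24 males, 1831 and 1623 in WT-24 females, and 1119 to 1743 in WT-6. The WT-24 males were the low arrays for Hml and also for Pxn, PPO2 and vkg. NimC1 too read lower in WT-24 males (154 and 151) than in WT-24 females (320 and 268), and all 4 lay below the WT-6 arrays. Without NimC1 the summed intensity of the 12 other markers lay between 33669 and 49872 in WT-24 (median 43245) and between 40195 and 48113 in WT-6 (median 46845), so the ranges overlapped. The sum follows its brightest members, and Hml was a small part of it. The list also holds lz, which is among the eye disc markers too. No marker was listed at 0, and the part of haemocyte number in the falls of NimC1, Tep3, l(2)34Fc and atilla was not tested. In dissected tissue, fewer cells of a type and less RNA per cell cannot be told apart. Of the 25 tested antimicrobial and immune genes Tep3 was the only call, and the list's median was -0.014. GNBP2 (-0.28, adjusted p = 0.234), of the family that binds microbial glucans, and cact (-0.14, adjusted p = 0.170), the Toll pathway inhibitor gene, came next and were not called.

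CG8319 read 853, 885, 1007 and 914 units in WT-24 and 1802, 1672, 1639 and 1792 in WT-6, with WT-6 above all 16 other arrays. It was 1.89-fold lower in WT-24 (log2 -0.92 ± 0.129 SE, limma adjusted p = 0.00274). Map205, a gene for a microtubule-associated protein, fell by 0.60 on the log2 scale, from 2894 to 4225 units in WT-6 to 2144 to 2669 in WT-24. Oatp30B, an organic anion transporter gene, fell by 0.51, from 2221 to 2602 units to 1552 to 1845. The others among the 12 largest falls are known by identifier, and ran from CG33640 (-0.84) and CG14598 (-0.82) through CG43333 (-0.66) and CG7328 (-0.56) to CG14237 and CG42342 (both -0.51). CG7328 was dim but tight, at 157, 159, 153 and 149 in WT-24 and 236, 217, 225 and 233 in WT-6. CG14598 lost its call without any of the 8 arrays. The 3 other probe sets of CG42342 differed by -0.04, -0.12 and -0.12 and were not called. Counting these, 4 called genes had 7 other probe sets above the intensity filter. Of the 7, 6 had the sign of the call, none of them called, and 1 had the opposite sign. That was for CIAPIN1, at 0.33 against -0.19.

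**Figure D2:**
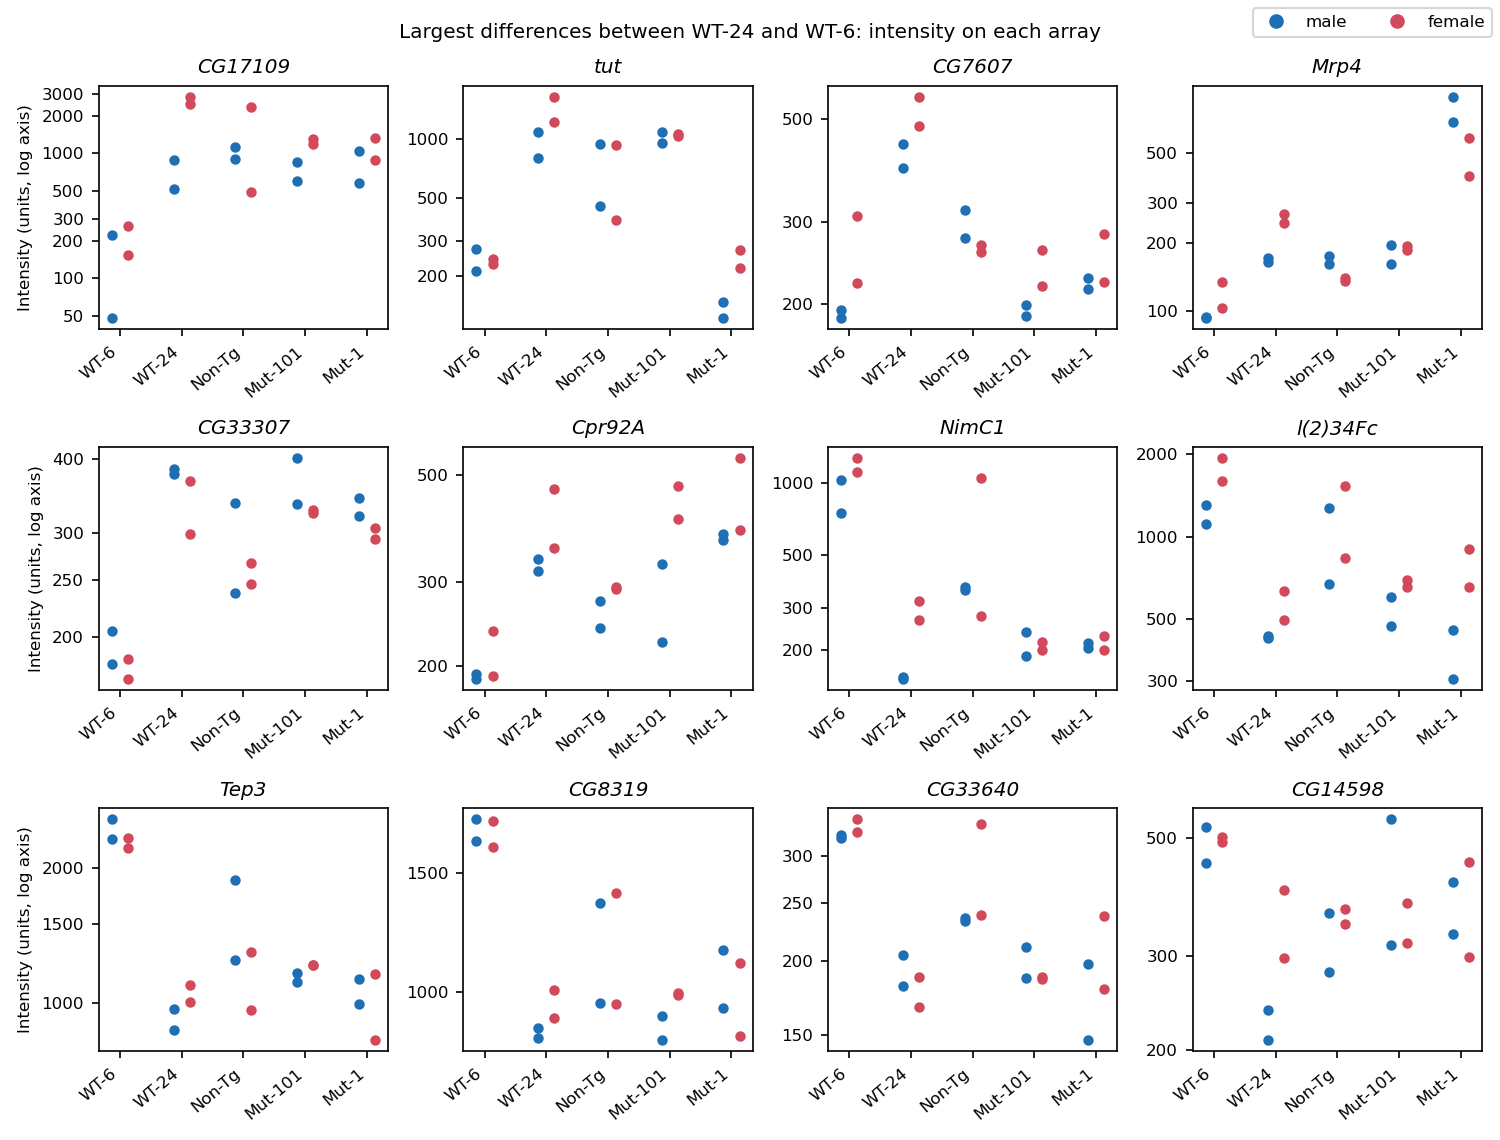
Intensity of the 6 largest rises and 6 largest falls among called genes, 1 point per array (log vertical axis, units of intensity), by line on the horizontal axis, with males in blue and females in red. WT-6 alone stands low for CG17109, Mrp4 and CG33307 and alone stands high for Tep3 and CG8319, WT-24 alone stands high for CG7607, and for tut the lines Mut-101 and Mut-1 lie with WT-24 and WT-6, respectively.

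Detoxifying enzymes gave the most calls of any list. Glutathione S-transferases join glutathione to reactive compounds, and the delta class genes sit in a cluster on chromosome arm 3R. Of 27 tested members, 2 were higher in WT-24 and 1 lower (11.1% of the list, 0.955% of all tested probe sets), with a list median of 0.000. GstD3 read 6000, 6147, 5138 and 5737 units in WT-24 and 3794, 3846, 4122 and 3698 in WT-6, a difference of 0.57 ± 0.0542 (SE, limma adjusted p = 0.000220). The mutant lines lay on different sides, Mut-101 near WT-6 and Mut-1 above WT-24. GstD1 differed by only 0.15 ± 0.0290 (SE, adjusted p = 0.0232), between 11097 and 11725 units in WT-6 and 12431 and 12994 in WT-24. The GstD1 call ended after median centring (adjusted p = 0.0853), without the variance trend (adjusted p = 0.133) and without any of 6 of the 8 arrays. GstZ1, of the zeta class, was lower in WT-24, at 2348, 2019, 2234 and 2021 units against 2955, 2743, 2921 and 2824 in WT-6 (-0.41 ± 0.0598 SE, adjusted p = 0.00307). Delta class genes are close in sequence, and whether probe sets of this class share signal was not tested. Among those not called were GstD9 at -0.48 (adjusted p = 0.0596) and GstD10 at 0.41 (adjusted p = 0.433), on opposite sides of 0. Among 34 cytochrome P450 and other detoxification genes, Cyp9f2 was the only call, with 766 to 877 units in WT-24 and 496 to 618 in WT-6 (0.61 ± 0.106 SE, adjusted p = 0.0109), and the list's median was -0.001. That call ended without any of 3 of the 8 arrays.

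Genes of the endoplasmic reticulum, where proinsulin folds, gave almost no calls. The unfolded protein response is the programme that raises chaperones and cuts translation when misfolded protein builds up there. Of 17 tested ER chaperones and folding enzymes, 1 was higher in WT-24 and none lower, with a median of 0.007. That gene was DnaJ-1, a cytosolic Hsp40 cochaperone also held by the heat shock list (0.27 ± 0.0546 SE, adjusted p = 0.0361), and its call ended without any of the 8 arrays. No member was called among 13 UPR sensors and PERK-ATF4 genes (median 0.013), 13 genes of ER-associated degradation (median -0.017) or 20 genes of COPI and COPII transport (median 0.026). Hsc70-3, the fly BiP, read 15096 ± 209 units in WT-24 and 14865 ± 668 in WT-6 (SD, n = 4 each), a difference of 0.02 ± 0.0285 (SE, limma adjusted p = 0.905). In Mut-101 it read 16091 ± 309 and in Mut-1 16603 ± 447. Sil1, the exchange factor of BiP, read 1617 ± 71.5 and 1640 ± 120 (-0.02 ± 0.0673 SE), against 2732 ± 342 in Mut-101 and 3846 ± 393 in Mut-1. CG9313, CG14545, reb, Ero1L and daw were not called either. The first 3 are dim in both wild-type lines, below the lowest geometric mean tested (158 units), and passed the intensity filter through the C96Y lines, so their missing calls carry little weight. CG9313 read 53.2 ± 2.01 in WT-24 and 58.2 ± 5.03 in WT-6, against 433 ± 117 in Mut-101, and CG14545 55.0 ± 6.22 and 57.3 ± 4.09, while the log2 difference was -0.04 for reb, 0.04 for Ero1L and 0.17 for the activin-type ligand gene daw. A p that misses the threshold does not show that the lines are equal. The standard errors of Hsc70-3 and Sil1 give the precision on the scale of the arrays. Hsc70-3 was bright and stood only slightly higher in the C96Y lines, and whether its signal was compressed was not tested.

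Genes of eye development gave 1 call. Of 28 tested photoreceptor specification and EGFR genes, sina was the only call, and the list's median was 0.046. sina encodes the ubiquitin ligase that lets the R7 photoreceptor form by removing the repressor Tramtrack. It read 3374, 3391, 3375 and 3228 units in WT-24 and 2450, 2702, 2427 and 2511 in WT-6, and all 4 WT-6 arrays lay below the 16 others (0.41 ± 0.0560 SE, limma adjusted p = 0.00230). The 24 retinal determination and furrow genes had no call and a median of -0.009. The strongest of them by p was caup, of the Iroquois complex, at -0.20 (adjusted p = 0.394).

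Growth, death and housekeeping lists had no call. They were cell cycle and DNA replication (34 tested, median -0.036), apoptosis and JNK (23, median 0.042), the proteasome (28, median -0.043), insulin and TOR signalling (15, median 0.050), the ecdysone response (20, median 0.020) and sex-linked and dosage genes (16, median 0.023). In the apoptosis and JNK list 6 of 23 had an unadjusted p under 0.05, against 8.84% of all probe sets. Their log2 differences were 0.16 for Traf4, 0.12 for Jra, 0.11 for morgue, 0.10 for kay, 0.09 for bsk and -0.20 for Buffy, all with adjusted p of 0.234 or more. The 38 cytosolic ribosomal protein genes had a median of 0.001, the 69 mitochondrial ones -0.011 and the 58 respiratory chain and ATP synthase genes -0.016. The 12 tested heat shock genes had a median of 0.019 and DnaJ-1 as the only call. Among 45 cuticle protein genes Cpr92A was the only call, and the list's median was -0.040.

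Other tissues that a dissection can carry gave 1 call among their markers, and some markers varied widely between arrays of a line. The 4 tested fat body markers had a median of 0.430 and no call. Their summed intensity was 23097 units on WT-24 female replicate 1, where Fbp1 read 5992 against 80 to 231 on the other 7 arrays, and WT-6 reached 5657. The 5 salivary gland markers had a median of -0.727, with sums from 6540 to 29191 in WT-24 and from 12998 to 30815 in WT-6. The ring gland markers had a median of 0.315 (5 tested), with sad, a gene of ecdysone synthesis, at 3742 and 2201 units on WT-24 male replicate 2 and female replicate 2 and 1400 on WT-6 female replicate 1, against 172 to 281 on the other 5 arrays. Muscle markers had a median of -0.245 (7 tested), glial markers 0.004 (7), neuroblast and brain markers 0.132 (6) and antennal disc markers -0.010 (7), with no call in any. Of the 4 tracheal markers serp, a chitin deacetylase gene that limits tube length in the embryonic trachea, was lower in WT-24 (-0.34 ± 0.0564 SE, limma adjusted p = 0.00688), at 4742 ± 244 against 6015 ± 183 units (SD, n = 4 each). The list's median was -0.018. The part of these tissues in the calls above was not tested.

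**Figure D3:**
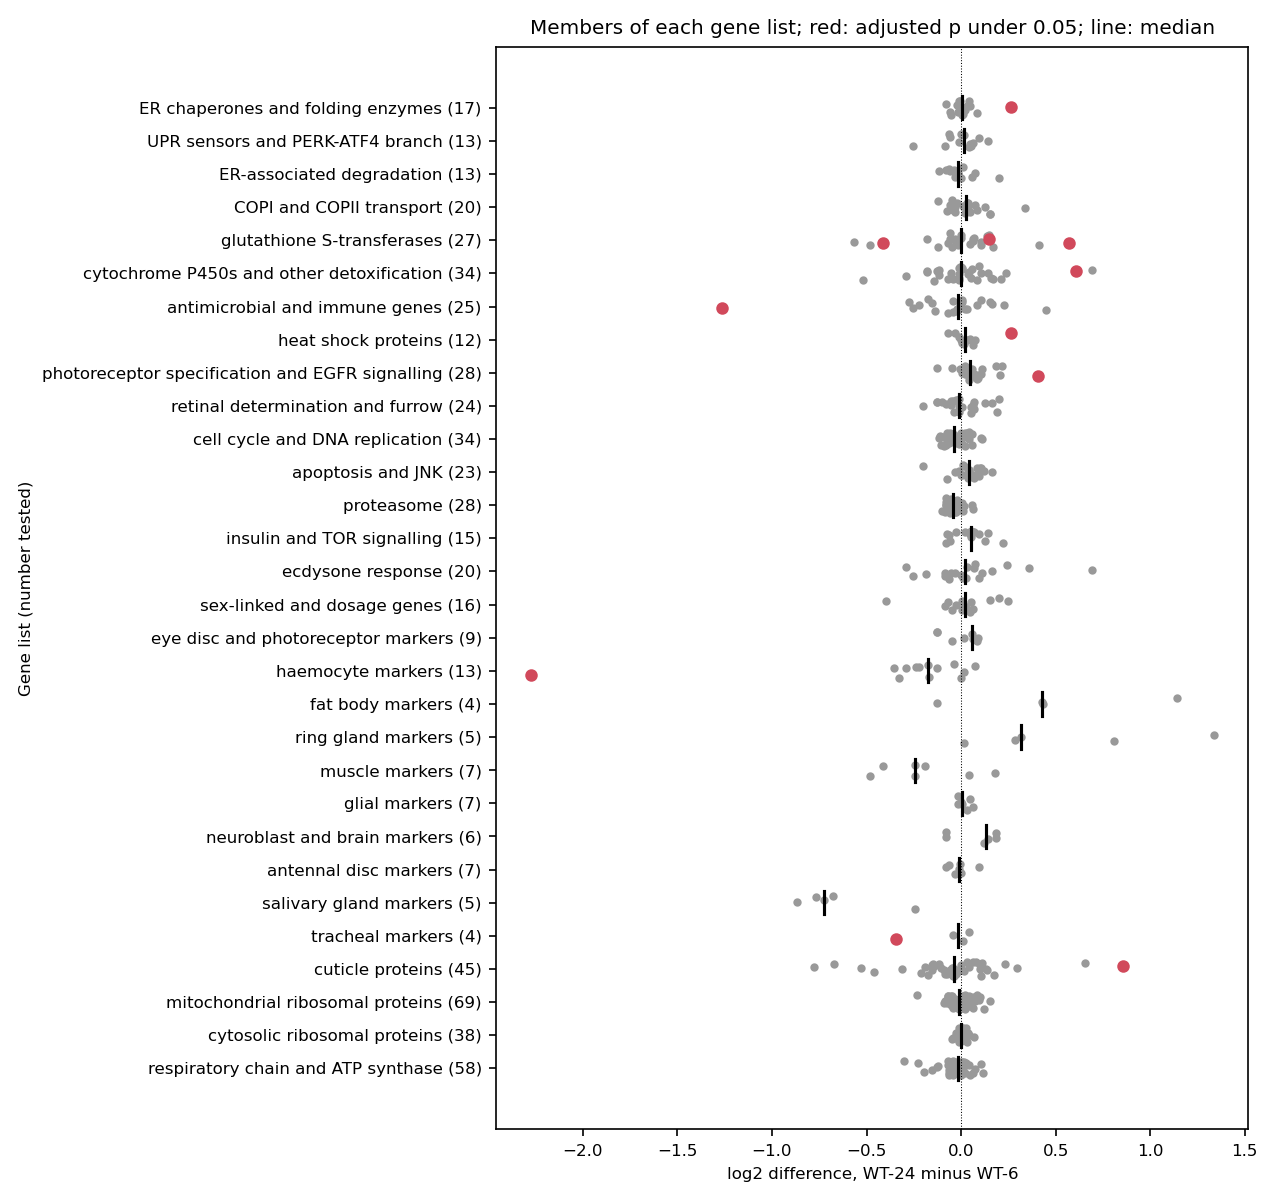
Log2 difference between WT-24 and WT-6 (horizontal axis) of each tested member of the 30 gene lists (vertical axis, number tested in brackets), with the list's median as a black line and called members in red. List medians lie near 0 except in small lists of other tissues, and called members stand out singly from their lists.

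No difference between the sexes in the line effect passed the test. With each sex on its own, 29 probe sets (0.283%) were called in males, 19 higher (0.185%) and 10 lower (0.0974%), and 27 (0.263%) in females, 20 higher (0.195%) and 7 lower (0.0682%). Of these 15 were called in both sexes, and 28 of the male and 27 of the female calls were among the 98. At an unadjusted p under 0.05 there were 947 (9.23%) in males and 298 (2.9%) in females. The counts rest on 2 arrays per line and sex, and without 1 of the male arrays of the lines 5 to 16 were called in males. Without 1 of the female arrays 0 to 4 were called in females, and without either WT-24 male array 14 were. The test of the difference between the sexes called no probe set (0%), with 248 (2.42%) at an unadjusted p under 0.05, 3 of them among the 98. The gene with the smallest p in that test was CG13071, which read 424 and 462 units in WT-24 males, 294 and 252 in WT-24 females, 244 and 185 in WT-6 males and 284 and 241 in WT-6 females. The line difference was 1.06 in males and 0.06 in females on the log2 scale (limma adjusted p of their difference 1.0). For pins the values were 0.68 in males and 0.69 in females, for Tep3 -1.41 and -1.12, and for NimC1 -2.53 and -2.02.

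The called genes were not spread evenly over the chromosomes. On 3R, 36 of 1954 tested genes were called (1.84%), on 3L 24 of 1536 (1.56%) and on 2L 17 of 1414 (1.2%). On 2R there were 4 of 1653 (0.242%), all higher in WT-24, and on the X chromosome none of 1359. Chromosome 4 had none of 55. Over all genes with a known chromosome the share was 1.02%. At an unadjusted p under 0.05 the shares were 13.5% on 3L, 11.2% on 3R, 10.6% on 2L, 6.17% on 2R and 5.89% on the X, while the small chromosome 4 had 11 of 55 (20%). The arrays of the lines did not overlap for 7.62% of genes on 3L, 6.35% on 3R, 5.30% on 2L, 3.33% on 2R, 1.82% on chromosome 4 and 1.03% on the X. The median SE was 0.0724 on the X and 0.0683 to 0.0693 on the 4 large autosomal arms, so precision differed little between them. The X count was also 0 after centring on medians, after quantile normalization, without the filter and with the upper 40% of probe sets by mean. Genes of an arm share their background, so these counts are a description, with no test.

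**Figure D4:**
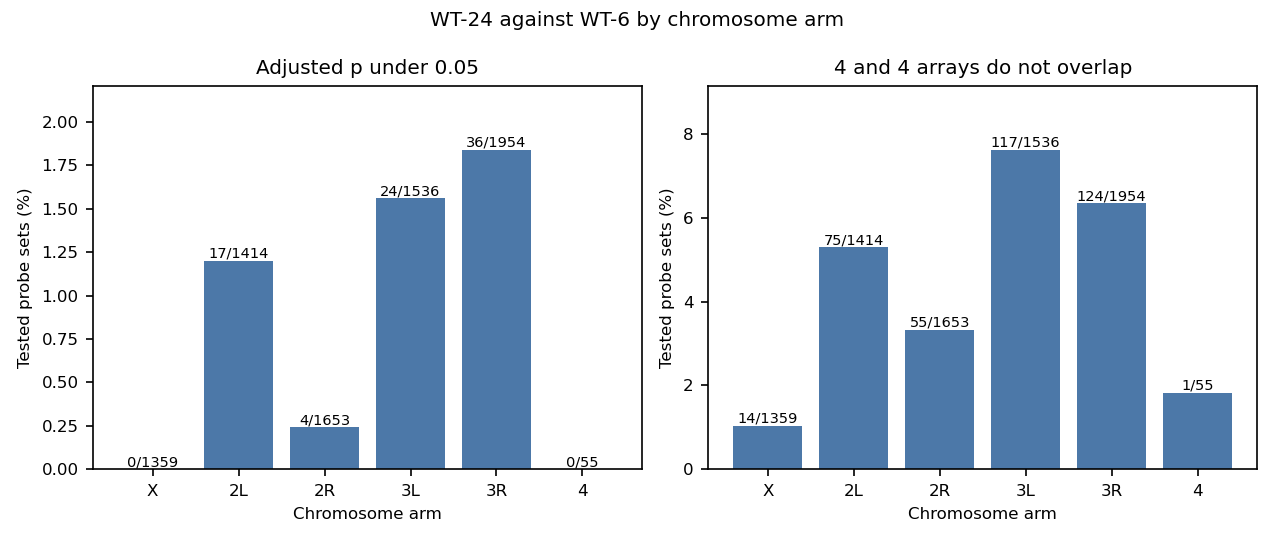
Share of tested genes on each chromosome arm that were called (left, percent) and for which the 4 arrays of WT-24 and the 4 of WT-6 did not overlap (right, percent), with the number over the number tested above each bar. Arms 3L, 3R and 2L hold the largest shares, and the X holds no call and 14 of 1359 genes without overlap.

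Some called genes lay close together. The order of tested genes along each arm came from the RefSeq annotation. In windows of 25 consecutive tested genes, the highest count was 5 called (20%), on 2L, with CenG1A, CG33307, CG7916, NimC1 and CG43333. The signs were mixed, as CenG1A (0.31), CG33307 and CG7916 were higher in WT-24 and NimC1 and CG43333 lower. A window on 3L held tut, Dscam4 (0.44), Culd (0.51) and CG13667 (0.49), all 4 higher in WT-24 (16%). A window on 3R held GC1, GstD1, GstD3 and Cyp9f2, again all higher (16%). Many of these calls were near the threshold, and leaving out single arrays ended that of CG43333 for 7 of the 8 arrays, of CG7916, Dscam4 and GstD1 for 6, of Culd for 4, of Cyp9f2 for 3 and of CenG1A for 2. GC1, a mitochondrial glutamate carrier gene, read 1458, 1400, 1483 and 1427 units in WT-24 and 994, 976, 992 and 1024 in WT-6 (0.53 ± 0.101 SE, limma adjusted p = 0.0206), and its call ended without any of the 8 arrays. Dscam4, a gene of the Dscam family of cell recognition proteins, had 2 dimmer probe sets below the intensity filter, which differed by 1.91 (adjusted p = 1.76e-05 without the filter) and 0.33 (adjusted p = 0.203). Of the 81 called genes, 4 had the next tested gene on the arm called as well, atilla with CG31759, CenG1A with CG33307, CG33307 with CG7916, and CG9427 with CG8319. That is 4.94% of called genes, against 1.02% called overall. atilla, whose protein marks lamellocytes, the haemocytes that encapsulate parasites, was lower in WT-24 (-0.49) and its neighbour CG31759 higher (0.35). atilla, CG31759 and CG9427 were picked after their values were seen.

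The 3 other lines were placed relative to the pair. For each of the 98 calls, the mean of another line was placed on a scale on which WT-6 is 0 and WT-24 is 1. This placement was added after the data were seen. The non-transgenic mean lay between the lines for 93 of 98 (94.9%), with a median position of 0.53 and quartiles of 0.31 and 0.66. It lay in the middle, from 0.25 to 0.75 on the scale, for 60, nearer to WT-6 for 21 and nearer to WT-24 for 17, so for most calls it does not show which line of the pair departs. Over all tested probe sets it lay between them for 33.4%, but small gaps leave little room, so lines are better compared over the same 98. Mut-101 lay between for 66 (67.3%; 23.2% over all) with a median of 0.66, and Mut-1 for 56 (57.1%; 20.6% over all) with a median of 0.73. With positions under 0.25 counted as near WT-6 and over 0.75 as near WT-24, Mut-101 was near WT-24 for 44 and near WT-6 for 27, and Mut-1 near WT-24 for 48 and near WT-6 for 26.

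**Figure D5:**
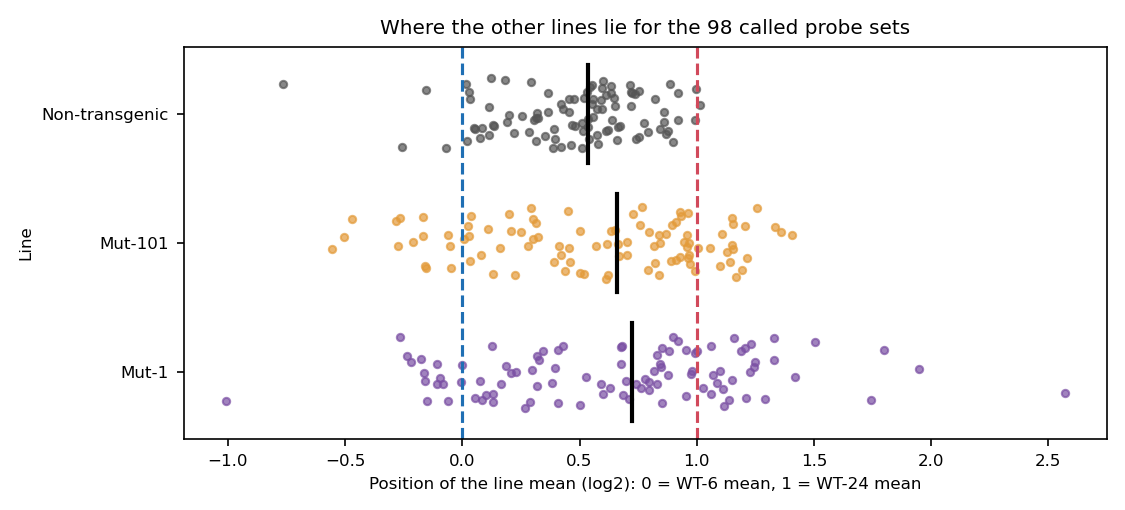
Position of the non-transgenic, Mut-101 and Mut-1 means (vertical axis) for each of the 98 called probe sets on a log2 scale where WT-6 is 0 and WT-24 is 1 (horizontal axis), with the median as a black line. Non-transgenic points crowd between the lines around 0.53, while those of Mut-101 and Mut-1 spread to both ends and beyond.

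Both C96Y lines lay near WT-24 for 27 of the 98, among them CG17109, pins, sina, GstZ1, NimC1 and Tep3, and both near WT-6 for 11, among them CG7607. Mut-101 lay near WT-24 and Mut-1 near WT-6 for 7, tut and plum included. The reverse held for 10, GstD3 and Cyp9f2 included. All 4 arrays of WT-6 stood outside the range of the 16 others for 27 of the 98 (27.6%), 11 above and 16 below. For WT-24 this held for 14 (14.3%), 10 above and 4 below. The 98 were called because the lines differ, which favours such positions, so these counts only describe the calls. The genes CtsF, shams and Ada2a were chosen after their values were seen. CtsF, a cathepsin gene, read 3756 to 3993 units in WT-6 and 4634 to 6017 elsewhere. shams, which encodes a xylosyltransferase acting on Notch, read 3796 to 4116 in WT-24 and 2584 to 2882 in WT-6, and Ada2a, of the ATAC histone acetyltransferase complex, 503 to 520 against 321 to 375.

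Each line was also set against non-transgenic discs, which asks where the lines depart from the driver alone. In limma 31 probe sets (0.302%) were called in WT-24, 17 higher (0.166%) and 14 lower (0.136%), and 15 (0.146%) in WT-6, 3 higher (0.0292%) and 12 lower (0.117%). At an unadjusted p under 0.05 the shares were 10.9% and 5.19%. These comparisons share the 4 non-transgenic arrays, so the values of the members stand side by side. pins differed from non-transgenic discs by 0.00 in WT-24 and by -0.68 in WT-6 (adjusted p = 5.55e-05 for the latter). CtsF differed by 0.07 in WT-24 and by -0.45 in WT-6 (adjusted p = 0.00587), Tep3 by -0.42 and 0.85 (adjusted p = 0.316 and 0.0265), and CG17109 by 0.36 and -2.86 (adjusted p = 0.808 and 0.0423). The opposite held for plum, at 0.56 in WT-24 and -0.14 in WT-6 (adjusted p = 0.00364 and 0.988), for CG7607 at 0.73 and -0.32 (adjusted p = 0.0111 and 0.710), and for shams at 0.53 and -0.02 (adjusted p = 0.00350 and 0.998). NimC1 lay at -1.07 in WT-24 and 1.21 in WT-6 and was called in neither (adjusted p = 0.197 and 0.207), with the split among the non-transgenic arrays given above. The WT-24 count became 59 and 20 without non-transgenic female replicates 1 and 2, and 18 without WT-24 female replicate 1. The WT-6 count became 47 without non-transgenic male replicate 1, 26 and 8 without non-transgenic female replicates 1 and 2, and 5, 6 and 7 without WT-6 female replicate 2, male replicate 2 and male replicate 1.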

How the data were processed

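Eye discs of 5 fly lines were measured on 20 Affymetrix arrays, 4 per line. The authors deposited 1 linear intensity per probe set and array, and the submitters' processing notes name MAS5, with no version or settings. Of 18952 probe sets, 183 controls were left out. Each gene was represented by its probe set of highest mean, and the upper 60% by mean were tested, 10262 in all, from a geometric mean of 158 units upward. Gene names come from GEO's platform annotation, and chromosome arms and gene order from RefSeq (Release 6).

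Log2 intensity, with no pseudocount or further scaling, was fitted with limma 3.58.1 in R 4.3.3, with a mean for each of the 10 groups of line and sex in a joint fit of the 20 arrays, and eBayes allowing variance to follow mean intensity (10 residual and 3.19 prior degrees of freedom). The main contrast is the mean of the male and female differences, WT-24 minus WT-6. Tests were two-sided, with Benjamini-Hochberg adjustment over all probe sets tested. The fit was tested on simulated data. The number of arrays limits the precision, and nothing in the labels says that arrays came from separate cultures, so the spread may be partly technical.

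The text names the 12 largest rises and 12 largest falls among called probe sets with 1 gene and the same sign in both sexes, up to 3 called members of each of 30 lists, or the member of smallest p where none was called, the called genes of the 3 windows of 25 genes with most calls, the interaction's 3 smallest p-values, and fixed reference genes (Hsc70-3, Sil1, Ero1L, CG9313, CG14545, reb, daw, NimC1, vis and w). The rule's 68 genes are not all described. The comparison, the genes and the lists were chosen with earlier results of these data known. Lists are described by counts and medians, with no test. List members without a tested probe set, the eye colour gene w included, were not analysed here. Alternatives were scaling, intensity filter, an offset of 50 units, every probe set, no variance trend, only the arrays compared, replicate blocks and leaving out each array.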

Additional observations from a re-analysis of the deposited data

Results flagged for a closer look

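Among 136 groups of 4 arrays from the lines of the named genes, 6 held an array whose gap to its nearest neighbour exceeded Dixon's critical value as a share of the range, and chance flags about 1 in 20 groups. Of the 6, 4 concern called genes described above. For sina, WT-24 female replicate 2 read 3228 units against 3374 to 3391 on the other WT-24 arrays. For plum, the same array read 4401 against 4870 to 4941. For Cpr92A, WT-6 female replicate 2 read 237 against 188 to 193, and for Dscam4, WT-24 male replicate 1 read 214 against 201 on each of the other 3. In each of these the array still lay on its own line's side of the other line. CG31248, second by p for a difference between the sexes, read 385 on WT-6 male replicate 2 against 267 to 277 on the other WT-6 arrays. Sil1 read 1460 on WT-6 female replicate 1 against 1689 to 1717, and was not called.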

How the results depend on the processing

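Of 37 named genes that were called, none changed sign in any of 23 alternative settings, 22 stayed called in every setting other than the block on the number in the sample description, and 23 with each array left out. The calls of CG13071, CG14598, DnaJ-1 and GC1 ended without any of the 8 arrays. Srr lost its call only in the fit of the compared arrays alone (adjusted p = 0.0729) and under that block. The 98 calls became 96 with only the arrays compared (77 shared), 97 after median centring, 102 after quantile normalization, 94 without the filter, 78 with the upper 40% by mean, 97 with the offset, 102 with every probe set, 88 without the variance trend and 91 without Mut-101 male replicate 2, whose median intensity was the highest.

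Leaving out 1 array, where the lone array of a sex is assumed to vary like the other groups, gave 59 to 91 calls, 38 to 57 higher and 20 to 34 lower, 5 to 23 in males, 0 to 23 in females, 0 to 5 for the interaction, 18 to 59 for WT-24 and 5 to 47 for WT-6 against non-transgenic discs. Higher calls were 38 without WT-6 female replicate 2 and 39 without WT-24 female replicate 1, and lower calls 20 without WT-24 female replicate 1 and 23 without WT-6 male replicate 1 or WT-6 female replicate 2. Calls in females fell to 17 with only the arrays compared and after median centring, and to 15 without the trend, and with only the arrays compared 7 and 4 were called against non-transgenic discs in WT-24 and WT-6.

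Deviations of arrays with the same title number in WT-24 and WT-6 correlated at -0.254 in males and -0.239 in females. In a group of 2 the deviations mirror each other, so arrays of unlike title number correlate at the same size with a positive sign. WT-24 male replicate 1 and WT-6 male replicate 2 share a description number, and the females of the lines share none. The check does not show that the arrays are unpaired. With the title number as a replicate block 84 were called, 81 of them shared. The description numbers overlap little between the lines, and the labels do not say whether they mark a batch or a sample. As a replicate block they raised the median SE from 0.0745 to 0.157 and left 2 calls, 1 higher and 1 lower, none shared and none of the 37 named, with 1 in males, 3 in females, 1 for the interaction, and 2 and 7 for WT-24 and WT-6 against non-transgenic discs.

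Signs turned only for genes that were not called. Under the description number block FASN1 became 0.016, Npc1a -0.048, Ero1L -0.017 and CG14545 0.028. Quantile normalization turned reb to 0.096. With 1 array left out, Hsc70-3 ran from -0.015 to 0.062, Sil1 from -0.071 to 0.034, Ero1L from -0.038 to 0.126, CG14545 from -0.129 to 0.003, reb from -0.138 to 0.051 and vis from -0.016 to 0.069. Insertion site, transgene level and background cannot be told apart with 1 line each, and without detection calls the dim genes have no known background.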

Other observations

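Further called genes outside the lists were picked after their values were seen. Sdhaf3, an assembly factor gene of succinate dehydrogenase, was higher in WT-24 (2385 ± 265 against 1561 ± 85.7 units, SD, n = 4 each; log2 0.61, limma adjusted p = 0.00505), and Trs20, of the TRAPP vesicle tethering complex, by 0.43 (adjusted p = 0.000452). Idh3g, a subunit gene of mitochondrial isocitrate dehydrogenase, was lower (1652 ± 92.8 against 2167 ± 116; -0.39, adjusted p = 0.00301), as were TFAM (-0.28), for the mitochondrial DNA-packaging factor, and Crtc (-0.43), for the coactivator of CREB. wnd, the MAP3 kinase gene of axon injury signalling, read 2318 ± 93.6 in WT-24 and 3219 ± 143 in WT-6 (-0.47, adjusted p = 0.000220), and the WT-6 arrays lay above all 16 others. The FGF ligand gene ths was higher in WT-24, from 237 to 297 units against 193 to 222 (0.39, adjusted p = 0.0407), and read 146 to 167 in Mut-1. wun, a lipid phosphatase gene of germ cell guidance, was also higher (0.55, adjusted p = 0.00333), at 1394 to 1637 against 913 to 1173.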
